A study of Mus musculus with 8 samples.

Results

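Tight junctions seal the space between neighbouring intestinal epithelial cells and set which ions and solutes pass between them. Claudins are the membrane proteins that form the strands, occludin is a further membrane protein of the strand, and the zonula occludens (ZO) proteins are the scaffolds beneath the membrane that tie the strands to the actomyosin ring. In the small intestine, claudin-2 and claudin-15 form paracellular channels for cations, whereas claudin-7 is also found along the basolateral membrane, where it binds the adhesion molecule EpCAM. The genes described here are the 9 listed by name, namely Cldn2, Cldn3, Cldn4, Cldn7, Cldn15, Cldn23, Tjp1, Tjp3 and Ocln. A value could be made for 6 of the 9, out of 13081 genes with a value in the whole data set.

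The samples were small intestinal organoids grown in Matrigel from crypts of MG53-TG mice (n = 4) or their wild-type littermates (WT, n = 4). MG53-TG mice overexpress MG53, a tripartite motif protein encoded by Trim72, in the whole body. Besides the transgene the labels name no treatment, age or further allele in either group, and the promoter that drives the transgene is not given in the sources used here. The study's text describes its crypt organoids as coming from MG53-TG mice crossed with an Lgr5 knock-in reporter line and from Lgr5 controls, so whether these samples carry the Lgr5 allele is not settled by the labels. The labels do not say whether the numbered samples of a group came from separate mice or cultures, so every p-value below measures the spread between these samples, which may be technical. The deposited values are FPKM (fragments scaled by transcript length and by the fragments of the library) for transcript features, so the read depth of each sample is unknown. A gene's value is the sum of FPKM over its annotated transcription starts, or over its transcription ends where that sum is higher on average. A sample with no value for a gene was set to 0 if the group's other samples had a median under 0.5 FPKM. Otherwise its value was left missing.

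Trim72, the transgene, had no value in the 4 WT samples, which were set to 0. In the MG53-TG samples it was at 16.4, 27.4, 31.9 and 36.5 FPKM. Across all genes, 4595 of 10271 tested passed an adjusted p of 0.05 in limma with Benjamini-Hochberg adjustment, that is 44.7% of the genes, with 15.5% higher and 29.2% lower in MG53-TG. Genes as a whole had a median log2 fold change of -0.17. Scaling by median of ratios shifted it by 0.16, and the split of calls went from 1592 higher and 3003 lower to 2102 higher and 2105 lower. Of 7 epithelial markers, 4 were lower (Cdh1, Krt8, Krt18 and Cdx2), 1 was higher (Vil1) and 2 did not pass (Epcam and Krt19), and their sum was 1958 to 2316 FPKM in WT and 1671 to 2168 FPKM in MG53-TG. No listed immune marker was above 0.296 FPKM in any sample. Of 8 mesenchyme markers, Pdgfra, Lum and Acta2 had no row. The collagen genes Col1a1, Col1a2 and Col3a1 had no value in any WT sample, and these were set to 0. They were at up to 2.07 FPKM in MG53-TG samples 2 to 4, with no value in sample 1. Col1a2 and Col3a1 passed the test as higher (limma adjusted p = 0.0035 and 0.0006), on those 3 MG53-TG samples. Their absent values counted as 0 in WT but as missing in MG53-TG sample 1. These p-values rest on that unlike handling of the groups and are not read as a rise. Vim, of the same list, went the other way, at 1.80 to 3.24 FPKM in WT and 0.945 to 2.45 FPKM in MG53-TG. It did not pass (log2 fold change -0.41, limma adjusted p = 0.125). Dcn was above 0 in MG53-TG sample 2 only, at 0.480 FPKM. The MG53-TG samples fell into pairs. Samples 1 and 2 correlated at r = 0.976 and samples 3 and 4 at r = 0.974 across genes, against a lowest r of 0.939 within the group, and genes are not independent replicates. All 12 listed enterocyte genes were higher in MG53-TG, with a summed level of 692 to 833 FPKM in WT and 8922 to 11726 FPKM in MG53-TG and no marker at 0. The 8 listed proliferation genes summed to 503 to 562 FPKM in WT and to 137 to 394 FPKM in MG53-TG, and 7 passed the test as lower. Of the crypt base stem cell, goblet and Paneth markers, 6 of 8, 5 of 7 and 6 of 6 tested were lower, and of the enteroendocrine markers 4 of 6 were higher. The summed stem cell markers were at 360 to 530 FPKM in WT and 35.1 to 208 FPKM in MG53-TG. The part of these shifts in the junction genes below was not tested, and in these bulk samples fewer cells of a type and less RNA per cell cannot be told apart.

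Of the 6 genes with a value, 4 passed the test across all genes. Cldn15 was higher in MG53-TG, and Cldn7, Tjp1 and Tjp3 were lower, while Cldn2 and Ocln did not pass. The plot of expression by sample shows that the groups did not overlap for any of the 4 genes that passed, as was the case for 44.8% of all genes tested, 15.7% higher and 29.1% lower. The count of 4 of 6 is set beside the 44.7% of all genes that passed, and 3 of 6 lower beside 29.2%. With median-of-ratios scaling 2 of the 6 passed, beside 41.0% of all genes, so the count depended on the scaling. The median log2 fold change of the 6 genes was -0.23, against -0.17 for all genes.

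**Figure D1:**
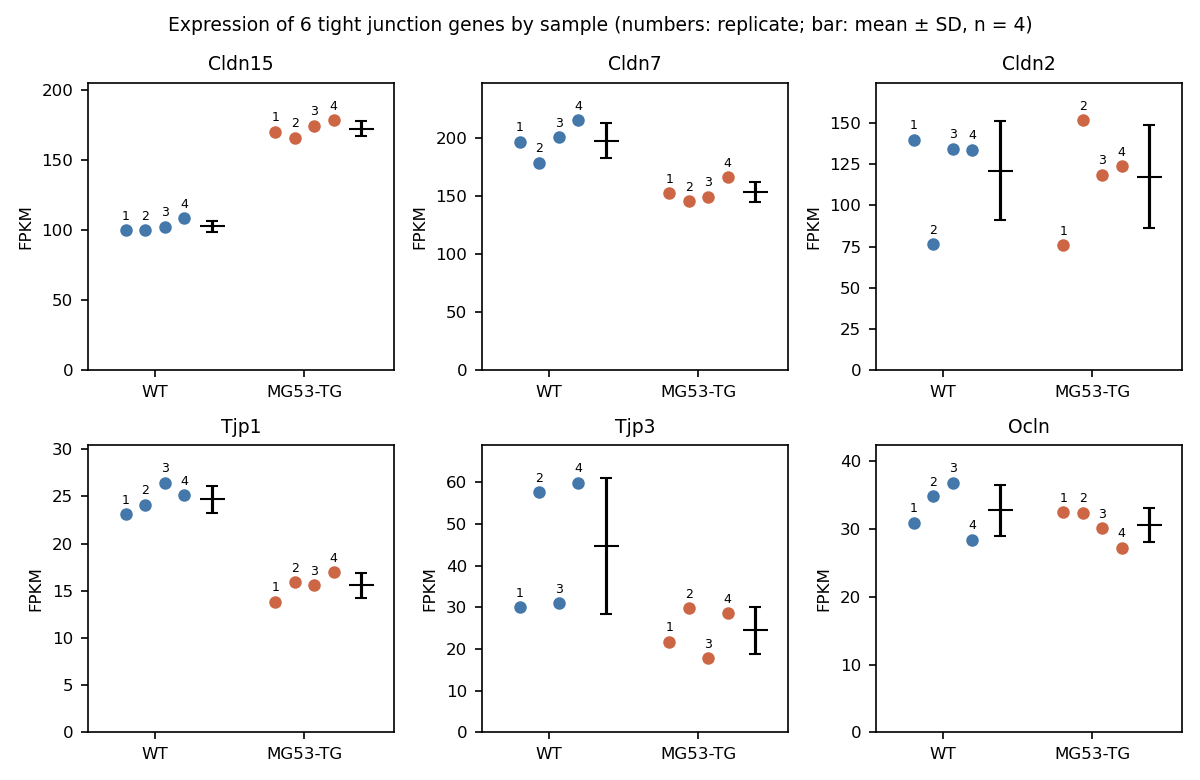
FPKM of the 6 genes with a value in each sample, with WT in blue and MG53-TG in orange, the replicate number above each point and the mean ± SD (n = 4) as a bar. Cldn15 lies higher and Cldn7, Tjp1 and Tjp3 lie lower in all 4 MG53-TG samples, whereas Cldn2 and Ocln overlap between the groups.

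Cldn15 (ENSMUSG00000001739, chr5:136966616-136975858 on the plus strand of GRCm38) encodes a claudin that forms cation channels in the gut. Its level was 100, 100, 103 and 109 FPKM in WT and 171, 166, 175 and 179 FPKM in MG53-TG. Every MG53-TG sample lay far above every WT sample, and the replicates of each group lay within a narrow range. The mean rose from 103 ± 4.05 to 173 ± 5.30 FPKM (SD, n = 4), a ratio of 1.68. The log2 fold change was 0.74 (SE 0.069, limma adjusted p = 6.95e-05), and the 95% interval ran from 0.58 to 0.90. Almost all of this value came from 1 start, whose first exon lies at chr5:136967869-136968323, in every sample of both groups.

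Cldn7 (ENSMUSG00000018569, chr11:69964779-69967885, plus strand) encodes the EpCAM-bound claudin. It was the most highly expressed of the 6 genes in WT, at 197, 179, 201 and 215 FPKM, against 153, 146, 150 and 166 FPKM in the MG53-TG samples. All 4 MG53-TG samples lay under the lowest WT sample. The mean fell from 198 ± 15 to 154 ± 8.89 FPKM (SD, n = 4), by 0.36 on the log2 scale (SE 0.083, limma adjusted p = 0.0078). Under median-of-ratios scaling Cldn7 differed by -0.17 and did not pass (adjusted p = 0.252), and under quantile normalization it differed by -0.55 (adjusted p = 0.00081). Its partner Epcam was at 398 to 490 FPKM in WT and 410 to 507 FPKM in MG53-TG, with a log2 fold change of 0.02 (adjusted p by limma = 0.909). The ratio of Cldn7 to Epcam within a sample, which a scaling factor per sample cannot change, was 0.453 ± 0.033 in WT and 0.349 ± 0.041 in MG53-TG (SD, n = 4) and did not overlap between the groups (two-sided exact permutation p = 0.0286, the smallest that 4 against 4 samples allow). Against E-cadherin (Cdh1) the ratio went the other way, from 0.893 ± 0.078 to 1.21 ± 0.126 (exact permutation p = 0.0286), so the direction depended on the gene of reference.

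Cldn2 (ENSMUSG00000047230, chrX:139800828-139811386, plus strand) encodes a cation and water channel that is typical of crypt cells. It was at 140, 76.5, 134 and 134 FPKM in WT and at 75.7, 152, 119 and 124 FPKM in MG53-TG. One sample of each group was low, at 76.5 and 75.7 FPKM, and the others lay at 119 FPKM or above, so the spread within the groups was far larger than the difference between their means of 121 ± 29.8 and 117 ± 31.3 FPKM (SD, n = 4). The log2 fold change was -0.05 (95% interval -0.61 to 0.52, limma adjusted p = 0.892), an interval wide enough to hold a change of the size seen for Cldn7. This value comes from the end row of Cldn2. In WT sample 2 the start rows that match the gene summed to 29.8 FPKM, and to 155 FPKM with rows that failed the check against exon boundaries. In every other sample all start rows under the gene's identifier summed to the same value as the end row. The low value of WT sample 2, and with it the SD of WT, thus depends on the rows counted. MG53-TG sample 1 was at 75.7 FPKM by either. With no such check the log2 fold change of Cldn2 was -0.30, which did not pass either (adjusted p = 0.221).

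No value could be made for Cldn3 (chr5:134986214-134987472), Cldn4 (chr5:134945119-134946934) or Cldn23 (chr8:35824712-35826559). The files list the first and last exons of spliced transcripts by their inner boundary. All annotated transcripts of Cldn3 and Cldn4 have a single exon, and only 4 of the 22081 annotated genes of that kind had a row that matched them. Cldn23 has an annotated 2-exon transcript but had no row. The only rows under the name Cldn4, at 0.452 FPKM in WT sample 2, lay on the opposite strand and were not used. These files therefore say nothing about whether Cldn3 and Cldn4 were expressed. For Cldn23 the reason for the missing row is not known, and it is not read as a lack of expression.

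Tjp1 (ENSMUSG00000030516, chr7:65296165-65527781, minus strand) encodes ZO-1, the scaffold that binds claudins, occludin and actin. It was at 23.1, 24.1, 26.4 and 25.1 FPKM in WT and at 13.8, 15.9, 15.6 and 17.0 FPKM in MG53-TG. The highest MG53-TG sample lay well under the lowest WT sample. The mean fell from 24.7 ± 1.43 to 15.6 ± 1.3 FPKM (SD, n = 4), with a log2 fold change of -0.63 (SE 0.096, 95% interval -0.85 to -0.41, limma adjusted p = 0.0011).

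Tjp3 (ENSMUSG00000034917, chr10:81273207-81291581, minus strand) encodes ZO-3, an epithelial scaffold of the same family. Its level was 30.1, 57.7, 31.1 and 59.9 FPKM in WT and 21.8, 29.8, 17.8 and 28.6 FPKM in MG53-TG. Samples 2 and 4 were the higher ones in both groups, and the highest MG53-TG sample was only just under the lowest WT sample. The mean fell from 44.7 ± 16.3 to 24.5 ± 5.70 FPKM (SD, n = 4), with a log2 fold change of -0.80 (SE 0.27, limma adjusted p = 0.0393). This call rested on single samples, since without WT sample 2 or 4 or MG53-TG sample 1 or 3 the adjusted p of Tjp3 was 0.10, 0.10, 0.0789 and 0.102, and it was 0.0966 with median-of-ratios scaling, 0.0659 with quantile normalization and 0.0559 with no filter on low values.

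Ocln (ENSMUSG00000021638, chr13:100496507-100552718, minus strand) encodes occludin, the marker protein of the tight junction strand. It was at 30.9, 34.8, 36.8 and 28.4 FPKM in WT and at 32.5, 32.3, 30.1 and 27.2 FPKM in MG53-TG, and the groups overlapped. The log2 fold change was -0.09 (95% interval -0.34 to 0.16, limma adjusted p = 0.517). Falls as large as those of Tjp1 and Cldn7 lay outside this interval.

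The levels of the genes, which FPKM makes comparable per transcript length, ran in WT from Cldn7 through Cldn2, Cldn15, Tjp3 and Ocln down to Tjp1. Among these neighbours Cldn2 overlapped Cldn15, through WT sample 2 only, and Tjp3 overlapped Ocln across the WT samples. In MG53-TG the order was Cldn15, Cldn7, Cldn2, Ocln, Tjp3 and Tjp1, and Cldn7 overlapped Cldn2 and Ocln overlapped Tjp3. Cldn15 thus stood above Cldn7 in 4 of 4 MG53-TG samples and below it in all WT samples.

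Proportions within a sample do not change with a scaling factor per sample, and they were examined after the gene values had been seen. The ratio of Cldn7 to Cldn15 was 1.97, 1.79, 1.96 and 1.98 in WT and 0.896, 0.877, 0.856 and 0.931 in MG53-TG. This was a fall from 1.93 ± 0.092 to 0.890 ± 0.032 (SD, n = 4). It is a description, since Cldn15 was higher and Cldn7 lower in every MG53-TG sample, which fixes that their ratio separates the groups, and the same holds for the ratios of Cldn15 to Tjp1 and Tjp3. Of the 15 ratios between pairs of the 6 genes, 6 did not overlap between the groups, near the 39.7% of all pairs of genes tested, so the count itself is no result about these genes. The 6 included every pair of Cldn15 with Cldn7, Tjp1, Tjp3 or Ocln. The others were Cldn7 to Tjp1, which rose from 8.04 ± 0.613 to 9.90 ± 0.813, and Tjp1 to Ocln, which fell from 0.761 ± 0.086 to 0.515 ± 0.082 (SD, n = 4, exact permutation p = 0.0286 for each, unadjusted over 15 pairs). The ratio of Tjp1 to Tjp3 overlapped, at 0.614 ± 0.228 in WT and 0.660 ± 0.151 in MG53-TG (exact permutation p = 0.771).

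Cldn12 was the only further claudin with enough signal to test, at 10.3 to 13.3 FPKM in WT and 6.75 to 9.52 FPKM in MG53-TG. The summed FPKM of Cldn2, Cldn7, Cldn15 and Cldn12 was 434 ± 45.7 in WT and 452 ± 31.6 in MG53-TG (SD, n = 4) and did not differ beyond the spread between samples (exact permutation p = 0.486). Within that sum the share of Cldn15 was 22.3% to 27.3% in WT and 35.1% to 41.9% in MG53-TG (exact permutation p = 0.0286). The lowest sum (366 FPKM) and the highest share in WT were both those of WT sample 2, whose Cldn2 value depends on the rows counted. The share was computed after the rise of Cldn15 had been seen and restates it. Cldn15 rose less than the brush border gene Vil1, and the ratio of Cldn15 to Vil1 was 1.05 ± 0.104 in WT and 0.820 ± 0.102 in MG53-TG (SD, n = 4, exact permutation p = 0.0286). The ratio of Cldn15 to Epcam went the other way, from 0.235 ± 0.012 to 0.392 ± 0.034 (exact permutation p = 0.0286).

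**Figure D2:**
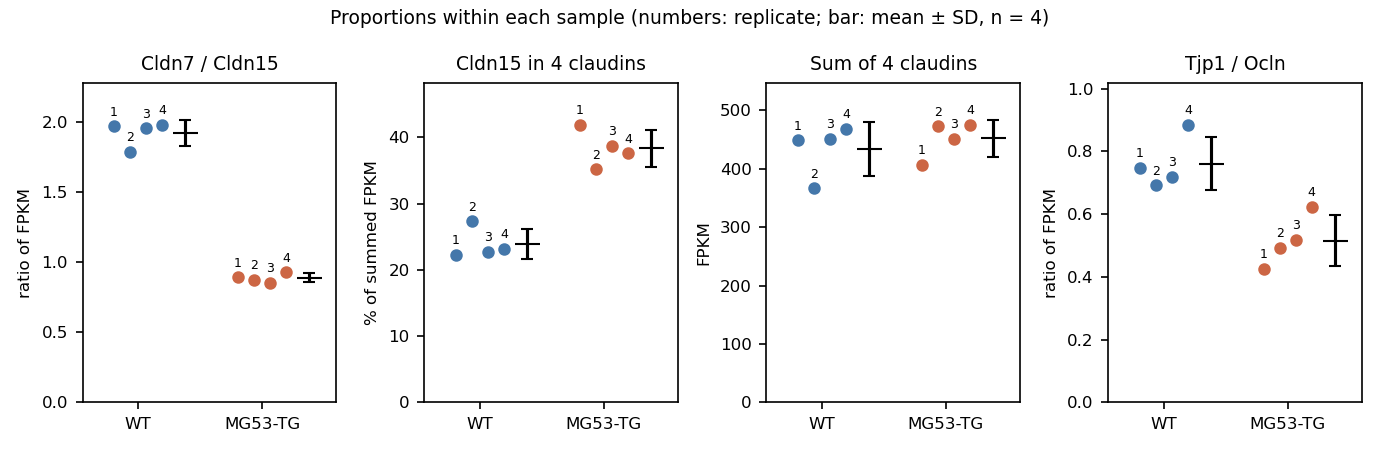
Proportions within each sample for WT (blue) and MG53-TG (orange), with the replicate number above each point and the mean ± SD (n = 4) as a bar. The ratio of Cldn7 to Cldn15 lies near 1.93 in WT and near 0.890 in MG53-TG, the share of Cldn15 in the 4 claudins is higher in all MG53-TG samples, the sum of the 4 claudins overlaps, and the ratio of Tjp1 to Ocln is lower in MG53-TG.

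Several of the genes had more than 1 start. Of 15 start or exon-end rows of 5 genes that held a middling share (5% to 95%) of their gene, 1 did not overlap between the groups, which sets 1 of 15 beside 7.42% of such rows over all genes tested, so the count is no result about these genes. That row was a start of Cldn2 with its first exon at chrX:139806081-139806259. It held 4.98, 10.8, 5.39 and 3.15 FPKM in WT and 55.1, 12.8, 40.6 and 46.3 FPKM in MG53-TG, and its share of all start rows under the gene's identifier was 4.22% ± 1.95 in WT and 38.2% ± 26.4 in MG53-TG (SD, n = 4, exact permutation p = 0.0286, unadjusted). Those rows include 2 starts that match no exon boundary of Cldn2. Over the matching starts only, a choice made after seeing the data, the share was 4.78%, 36.2%, 5.2% and 11.5% in WT and 99.4%, 10.6%, 100% and 99.7% in MG53-TG, and the groups overlapped (exact permutation p = 0.0857). MG53-TG sample 2 lay close to the WT samples. The upstream start at chrX:139800828-139801010 was absent from 3 of the 4 MG53-TG samples, and its share overlapped (exact permutation p = 0.171). In Tjp3 the high values of samples 2 and 4 came from the start at chr10:81291464-81291581 in WT sample 2 and both MG53-TG samples, and from the start at chr10:81291048-81291267 in WT sample 4. The share of neither differed between the groups (exact permutation p = 0.83 and 0.63).

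**Figure D3:**
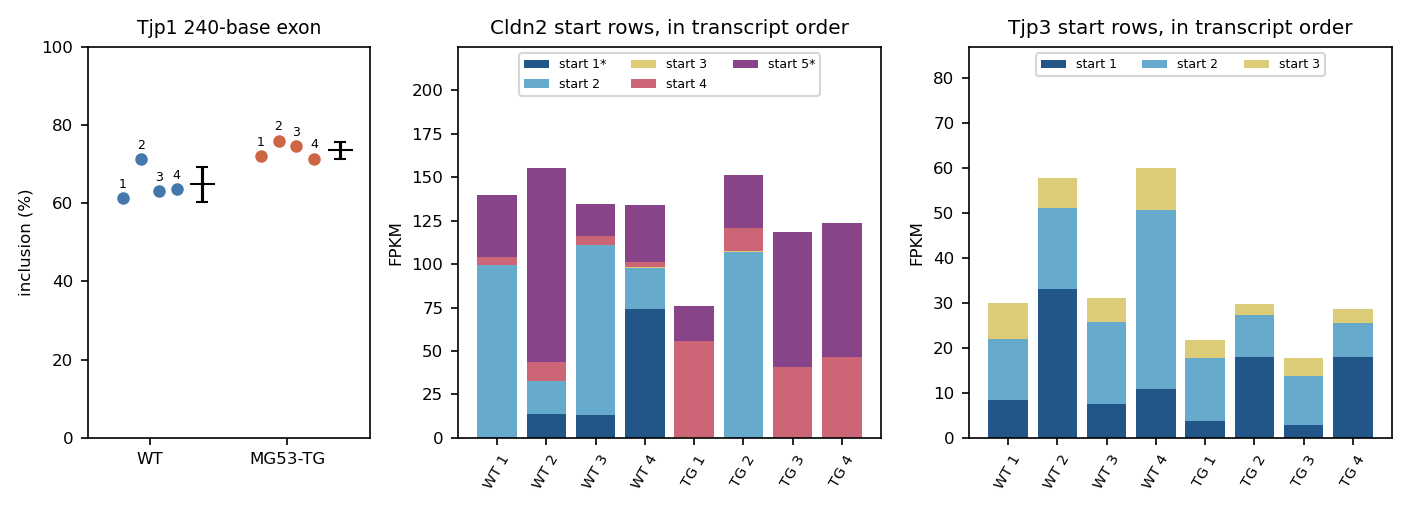
Left, inclusion (%) of the skipped exon of Tjp1 in WT (blue) and MG53-TG (orange), with replicate numbers and the mean ± SD (n = 4). Middle and right, stacked FPKM of the start rows of Cldn2 and Tjp3 in each sample, numbered in transcript order, where an asterisk marks a start that matches no annotated exon boundary of the gene. Start 4 of Cldn2 holds 40.6 FPKM or more in MG53-TG samples 1, 3 and 4 and 12.8 FPKM or less in the other samples. The largest part of the tall Tjp3 bars comes from the same start in WT sample 2 and MG53-TG samples 2 and 4, and from another start in WT sample 4.

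ZO-1 exists with and without a stretch of 80 amino acids encoded by a single exon of Tjp1, known as the alpha domain. This exon is exon 20 of 28 in transcript Tjp1-202, lies within the coding sequence and covers chr7:65314093-65314332 (minus strand, GRCm38, 240 bases). Its sequence in the GENCODE vM21 transcript is shown because measured forms of Tjp1 differ at this coding site. The exon is in capitals and 15 bases of each neighbouring exon are in lower case.
Tjp1 skipped exon: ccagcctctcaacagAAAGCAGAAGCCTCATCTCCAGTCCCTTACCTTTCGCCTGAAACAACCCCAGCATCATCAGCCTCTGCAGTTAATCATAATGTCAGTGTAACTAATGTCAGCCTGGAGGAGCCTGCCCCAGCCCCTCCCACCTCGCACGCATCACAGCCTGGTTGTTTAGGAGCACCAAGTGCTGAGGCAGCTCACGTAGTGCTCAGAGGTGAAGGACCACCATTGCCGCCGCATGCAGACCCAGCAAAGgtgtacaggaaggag
Transcripts with the exon were at 15.9 ± 1.34 FPKM in WT and 11.2 ± 0.919 FPKM in MG53-TG, and those without it at 8.66 ± 1.24 and 4.05 ± 0.560 FPKM (SD, n = 4). Both forms were lower in MG53-TG. Inclusion was 61.3%, 71.3%, 63.0% and 63.6% in WT and 72.1%, 76.0%, 74.7% and 71.4% in MG53-TG, and the lowest MG53-TG sample was only just above WT sample 2. The mean inclusion was 64.8% ± 4.45 and 73.6% ± 2.15 (SD, n = 4, exact permutation p = 0.0286). In the limma fit over all 1208 exons tested, the difference in Tjp1 did not pass (adjusted p = 0.556). That fit called 0.911% of the exons, and none of the 18 exons of 14 junction genes in it, although 6 of the 18 had an unadjusted p under 0.05, as had 137 of the 1208 exons, or 11.3%.

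A second site of Tjp1 used a choice of ends for exon 26 of transcript Tjp1-201. The long form covers chr7:65299670-65299813 (minus strand) and the short form lacks its last 60 bases, which encode 20 amino acids and are printed in capitals. A middle form ends between them, at chr7:65299709-65299813.
Tjp1 alternative exon end: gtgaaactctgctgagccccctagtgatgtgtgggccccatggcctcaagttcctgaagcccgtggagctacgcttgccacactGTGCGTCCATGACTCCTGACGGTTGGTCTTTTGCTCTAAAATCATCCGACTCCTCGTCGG
The short form held 61.7% ± 1.89 of these rows in WT and 68.5% ± 5.73 in MG53-TG, and the long form 21.3% ± 3.23 and 19.8% ± 2.37 (SD, n = 4). The middle form held 17.0% ± 2.26 and 11.7% ± 5.52. None of the 3 passed a two-sided exact permutation test (p = 0.0857, 0.543 and 0.114 for the short, long and middle forms), and the groups overlapped for each.

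The promoters of the 4 genes that passed the test are shown because these genes moved in opposite directions, Cldn15 against Cldn7, Tjp1 and Tjp3. Each run gives the 250 bases before the RefSeq start (GRCm38.p6). Cldn7 and Tjp3 have 2 such starts. For Cldn7 the one shown is where its matching start rows begin, and no such row began at the other. For Tjp3 it is the one whose start had the larger share on average in both groups. Capitals mark a match, on either strand, to the nuclear receptor half-site AGGTCA, the CDX motif TTTATTG, the GATA motif AGATAA, the TCF/LEF motif CTTTGA, the E-box CACCTG or the GC box GGGCGG.
Cldn15 promoter, chr5:136967619-136967868 (+): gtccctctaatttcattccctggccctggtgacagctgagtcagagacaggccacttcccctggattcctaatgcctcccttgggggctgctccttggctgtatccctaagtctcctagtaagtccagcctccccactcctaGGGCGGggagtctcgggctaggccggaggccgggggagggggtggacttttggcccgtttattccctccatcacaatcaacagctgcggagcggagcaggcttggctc
Cldn7 promoter, chr11:69964529-69964778 (+): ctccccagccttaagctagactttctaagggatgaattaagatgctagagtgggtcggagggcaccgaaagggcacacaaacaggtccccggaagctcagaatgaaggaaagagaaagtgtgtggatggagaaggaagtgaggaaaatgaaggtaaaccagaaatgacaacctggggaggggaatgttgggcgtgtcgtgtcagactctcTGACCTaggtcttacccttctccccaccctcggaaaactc
Tjp1 promoter, chr7:65371245-65371494 (-): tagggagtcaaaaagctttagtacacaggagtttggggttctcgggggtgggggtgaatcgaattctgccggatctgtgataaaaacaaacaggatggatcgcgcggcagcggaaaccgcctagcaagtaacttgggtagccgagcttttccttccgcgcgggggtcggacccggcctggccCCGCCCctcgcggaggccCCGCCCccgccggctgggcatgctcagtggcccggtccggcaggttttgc
Tjp3 promoter, chr10:81291268-81291517 (-): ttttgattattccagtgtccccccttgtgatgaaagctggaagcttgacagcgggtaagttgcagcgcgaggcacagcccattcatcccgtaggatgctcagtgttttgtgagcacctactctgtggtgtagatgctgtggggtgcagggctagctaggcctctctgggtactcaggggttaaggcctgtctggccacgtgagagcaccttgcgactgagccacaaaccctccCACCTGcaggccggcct
Cldn15 held 1 GC box and Tjp1 held 2, a motif found in 32.7% of the 32851 promoters of this length. Cldn7 held 1 nuclear receptor half-site and Tjp3 held 1 E-box, which were found in 14.0% and 17.2% of all promoters. None of the 4 windows held the CDX, GATA or TCF/LEF motif, which were found in 4.2%, 9.99% and 13.8%. The window of the other Tjp3 start, chr10:81291582-81291831, is not shown. It held 1 GATA motif, 1 nuclear receptor half-site and 1 E-box. That start held the largest share of Tjp3 in WT sample 2 and MG53-TG samples 2 and 4. A match is a run of letters and not a shown binding site.

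Beyond the 9 genes, 89 genes of 8 other junction lists were examined, of which 57 were tested. Of these 57 genes, 28 were lower in MG53-TG, 3 were higher and 26 did not pass, a share called of 54.4% beside 44.7% of all genes, with a median log2 fold change of -0.37 beside -0.17. With median-of-ratios scaling 18 genes were lower and 22 passed in all, or 38.6% beside 41.0% of all genes, so the higher share called among junction genes depended on the scaling. In the counts by list that follow, the shares over all genes are 44.7% called and 29.2% lower, and with so few genes a list no count is read as particular to its list. The plot of fold changes shows that the lower genes were spread over all lists.

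**Figure D4:**
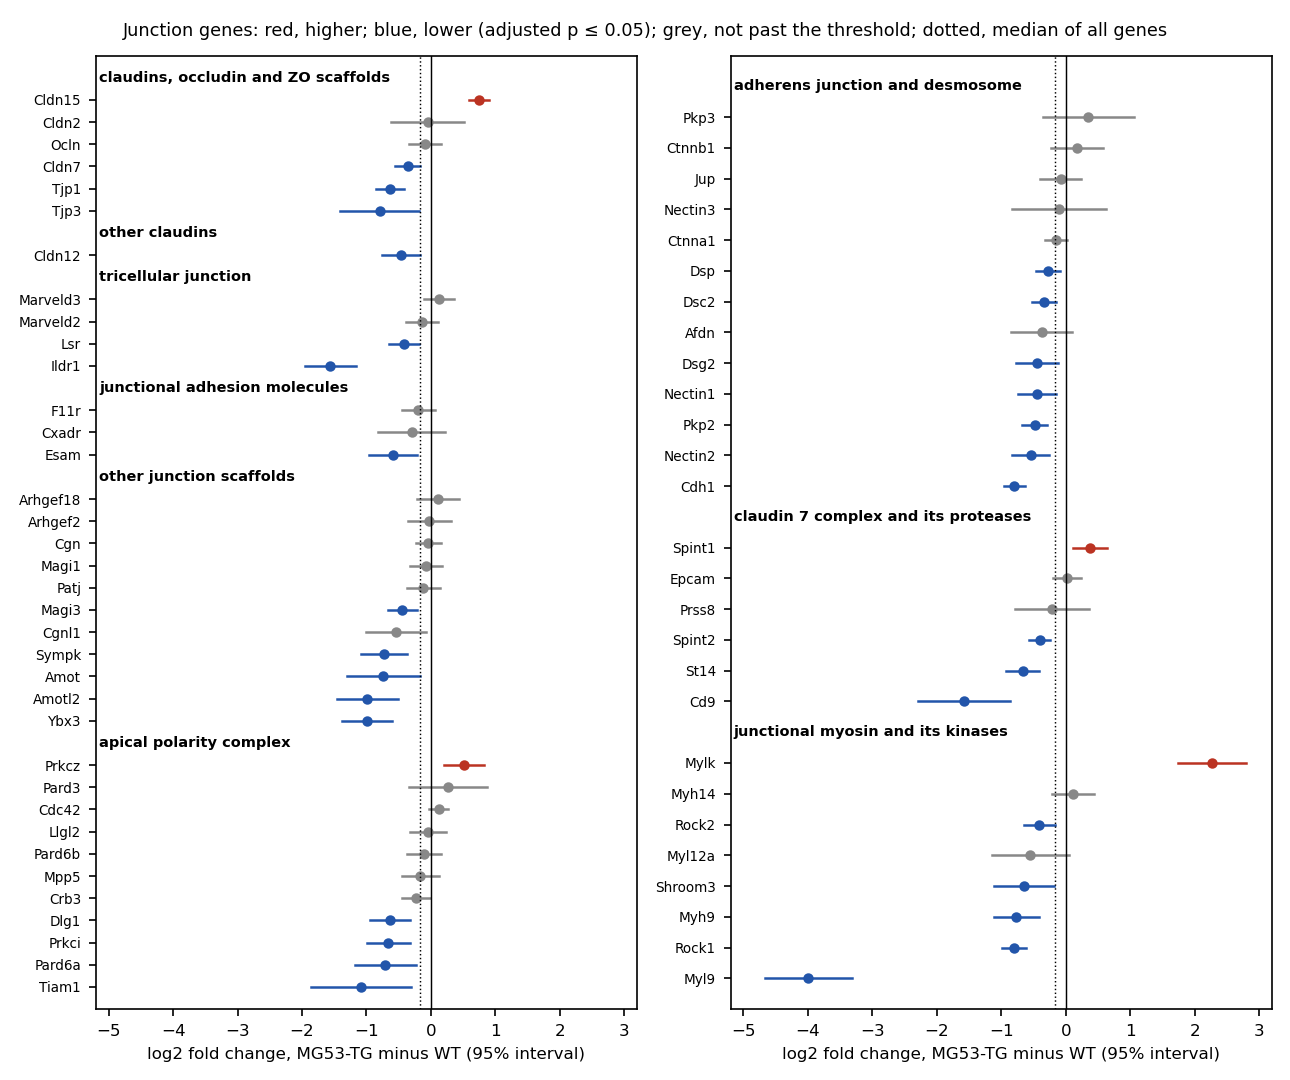
Log2 fold change (MG53-TG minus WT) with its 95% interval for the 6 genes and the 57 further junction genes tested, by list. Red genes were higher and blue genes lower at an adjusted p of 0.05 or less, grey genes did not pass, and the dotted line marks the median of all genes at -0.17. Only Cldn15, Prkcz, Spint1 and Mylk are red.

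Among the claudins, 7 of 24 genes had any value and Cldn12 fell by 0.47 on the log2 scale (limma adjusted p = 0.0177, 0.0710 when scaled by median of ratios, 0.0713 with quantile normalization and 0.0653 with MG53-TG samples 1 and 2 only). Cldn1 stayed under the test's limit of 0.5 FPKM on average and Cldn8, another single-exon gene, had no row. At the tricellular junction 2 of 4 genes tested were lower. Lsr and Ildr1, which encode the angulins that recruit tricellulin to the corners, fell by 0.42 and 1.56 (limma adjusted p = 0.0096 and 0.00018), and Lsr did not pass when scaled by median of ratios (-0.23, adjusted p = 0.0716). Ildr1 was at 6.80 to 10.1 FPKM in WT and 1.36 to 2.60 FPKM in MG53-TG. Marveld2, which encodes tricellulin itself, did not pass, with a log2 fold change of -0.14 (adjusted p by limma = 0.311). Of 3 junctional adhesion molecules tested, Esam was lower (log2 fold change -0.58, limma adjusted p = 0.0192, 0.0525 or 0.0524 without WT sample 1 or 3, and 0.0818 with MG53-TG samples 1 and 2 only) and F11r, which encodes JAM-A, was not called, at a log2 fold change of -0.19 (adjusted p by limma = 0.182).

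Of 11 other scaffolds and plaque proteins tested, 5 were lower and none was higher, or 45.5% called, near the share of all genes. Ybx3 encodes ZONAB, the transcription factor held at the junction by ZO-1, and it was at 159 to 197 FPKM in WT and 70.8 to 114 FPKM in MG53-TG, a log2 fold change of -0.99 (adjusted p by limma = 0.0021). Amotl2 and Amot, which encode angiomotins, had log2 fold changes of -0.98 and -0.74 (limma adjusted p = 0.0055 and 0.0401). The groups overlapped for Amot, whose adjusted p was 0.0587 to 0.102 when any of the WT samples or MG53-TG sample 3 or 4 was left out. Amot did not pass with median-of-ratios scaling, quantile normalization or no filter (adjusted p = 0.0590, 0.0542 and 0.0563), and with MG53-TG samples 1 and 2 only it was at -0.26 (adjusted p = 0.146). Ybx3 and Amot were lower in MG53-TG samples 3 and 4 than in samples 1 and 2. Cgn, which encodes cingulin, did not pass (log2 fold change -0.04, limma adjusted p = 0.742).

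In the apical polarity complexes 4 of 11 genes tested were lower and 1 was higher, or 45.5% called, near the share of all genes. Tiam1, Pard6a and Prkci, which encode an activator of Rac, an adaptor and the atypical protein kinase C iota, had log2 fold changes of -1.09, -0.71 and -0.66 (limma adjusted p = 0.0296, 0.0243 and 0.0069). The call of Tiam1 was lost without WT sample 1 or 4 and that of Pard6a without WT sample 1 or 2, and both were lost without MG53-TG sample 3 or 4, with adjusted p between 0.0518 and 0.0793. With MG53-TG samples 1 and 2 only, neither passed (Tiam1 -0.48, adjusted p = 0.157, and Pard6a -0.35, adjusted p = 0.107), and on end rows only Pard6a was at -0.34 (adjusted p = 0.229). In the adherens junction and desmosome 7 of 13 genes were lower, or 53.8% called beside 44.7%. Ctnnd1, of the same list, is outside this count because its rows were assigned by exon boundary. It was lower without overlap (log2 fold change -0.29, limma adjusted p = 0.0204). Cdh1, which encodes E-cadherin, was at 217 to 228 FPKM in WT and 120 to 134 FPKM in MG53-TG, a log2 fold change of -0.80 (adjusted p by limma = 5.65e-05). The ratio of Tjp1 to Cdh1 overlapped between the groups, at 0.111 ± 0.0051 and 0.123 ± 0.016 (SD, n = 4, exact permutation p = 0.2), whereas the ratio of Tjp1 to Epcam was 0.0566 ± 0.0040 and 0.0354 ± 0.0048 and did not overlap (exact permutation p = 0.0286). Nectin2 and Pkp2, a nectin and a desmosomal plaque protein, fell by 0.54 and 0.48 on the log2 scale (limma adjusted p = 0.0085 and 0.0021), and Nectin2 did not pass on its end rows (adjusted p = 0.379).

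Among the partners of claudin-7 and the membrane proteases that cleave EpCAM, 3 of 6 genes tested were lower and 1 was higher. Cd9, a tetraspanin, fell by 1.58 on the log2 scale, from 79.0 to 93.4 FPKM in WT to 15.9 to 45.2 FPKM in MG53-TG. St14, which encodes matriptase, and Spint2, which encodes an inhibitor of it, fell by 0.67 and 0.41, whereas Spint1, which encodes another inhibitor, rose by 0.37 (limma adjusted p = 0.0309) with overlapping groups and is named after its value was seen. The call of Spint2 was lost with median-of-ratios scaling. Among the genes of the actomyosin ring 5 of 8 tested were lower and 1 was higher. Myl12b, of the same list, is outside this count because its rows were assigned by exon boundary. It was at 90.9 to 97.1 FPKM in WT and 108 to 123 FPKM in MG53-TG (log2 fold change 0.30, limma adjusted p = 0.0113). Myl12b, like Ctnnd1 above, is named after its value was seen. Myl9, a regulatory light chain, was at 25.8 to 44.3 FPKM in WT and 0.587 to 3.00 FPKM in MG53-TG. Mylk, the kinase of that light chain, was at 3.02 to 5.05 FPKM in WT and 15.2 to 29.4 FPKM in MG53-TG, a log2 fold change of 2.26 (adjusted p by limma = 0.00012). Rock1, a second kinase of the pathway, fell by 0.81 on the log2 scale.

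For each of the 6 genes the most similar profile of log2(FPKM + 1) over the 8 samples was sought among 9964 other genes. It was that of Pdia2 for Cldn15 (r = 0.998), Fhl2 for Tjp1 (r = 0.995), Upf3b for Tjp3 (r = 0.971), Rps3 for Cldn7 (r = 0.966), Pcyox1 for Cldn2 (r = 0.963) and Dhdds for Ocln (r = 0.937). The profiles of Cldn15 and Tjp1 were common, with r over 0.95 for 506 and 245 genes, whereas those of Cldn2, Tjp3 and Ocln were shared at that level by 1, 2 and 0 genes. These values describe 8 samples that share their group structure.

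Leaving out the pairs of MG53-TG samples in turn did not end the call of Cldn15, Tjp1 or Cldn7. With MG53-TG samples 1 and 2 only, the log2 fold changes were 0.71 for Cldn15, -0.69 for Tjp1 and -0.40 for Cldn7, and with samples 3 and 4 only they were 0.78, -0.57 and -0.32. Tjp3 did not pass in either case (adjusted p = 0.152 and 0.0784). The plot of alternatives shows the same genes under each setting.

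**Figure D5:**
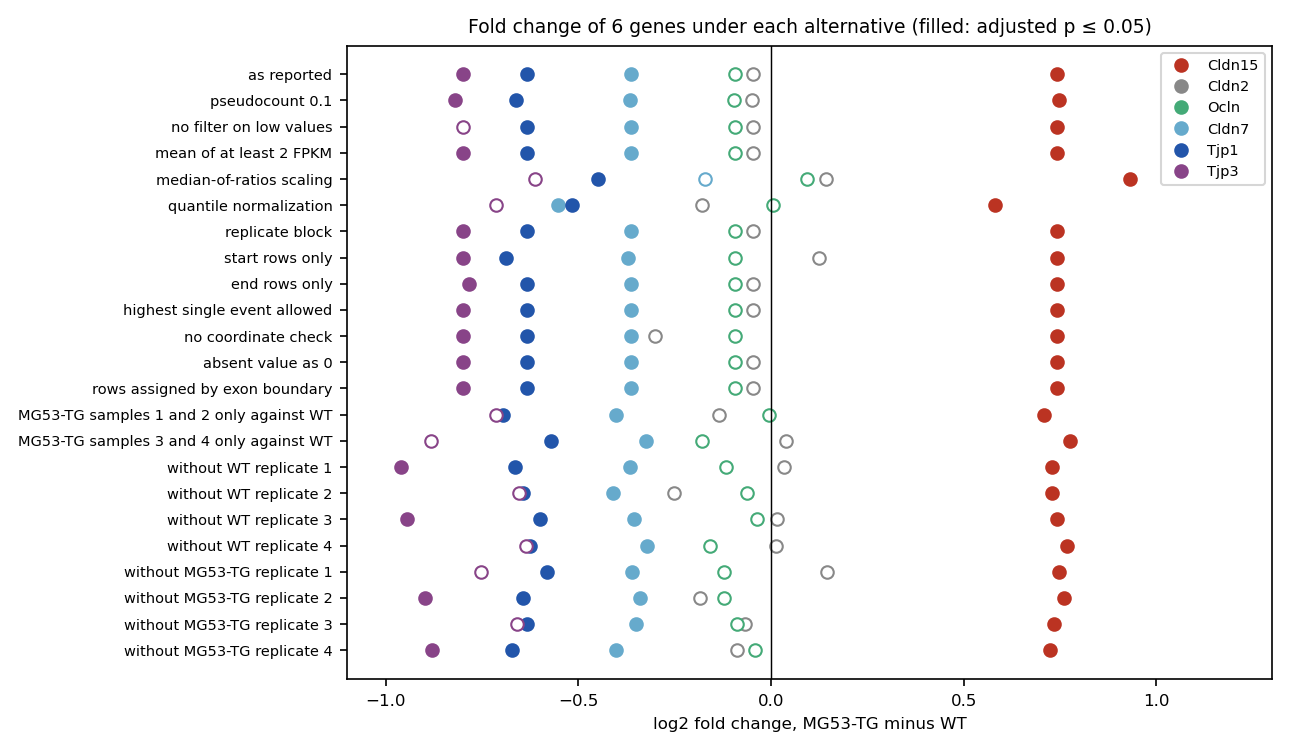
Log2 fold change (MG53-TG minus WT) of the 6 genes under each alternative, where a filled point has an adjusted p of 0.05 or less. Cldn15 and Tjp1 are filled in all lines, Cldn7 is open with median-of-ratios scaling, Tjp3 is open in several lines, and Cldn2 and Ocln are open throughout and lie on either side of 0.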

How the data were processed

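RNA was extracted from organoids of 4 WT and 4 MG53-TG samples. The authors deposited FPKM values for transcript starts, ends and alternative exons, 1 table per sample, and the submitters' processing notes name cutadapt 1.9.1, HISAT2 2.0.1, HTSeq 0.6.1, DESeq2 and mm10. FPKM divides by length and by the library's reads, so depth is unknown and no counting error can be given. Rows were checked against exon boundaries of GENCODE vM21 (GRCm38). FPKM was summed per gene, as log2(FPKM + 1), for genes at 0.5 FPKM or more on average, and tested with limma 3.58.1 (R 4.3.3) with a trended prior and Benjamini-Hochberg adjustment over all genes at 0.05. Fold changes are on the log2(FPKM + 1) scale, which understates changes of low genes. Ratios and shares were tested by two-sided exact permutation over 70 relabellings, unadjusted. Exon inclusion was tested with limma on arcsine values for exons at 2 FPKM or more in total and 5% to 95% inclusion. The fits were tested on simulated data. All 9 genes were named, and from each other list at most 3 genes past the threshold with the largest change, plus F11r, Cgn, Marveld2, Lsr, Cldn1, Cldn8, Cldn12, Cdh1 and Epcam. The most similar gene of each gene was named as well. The genes and lists were chosen with earlier results of these data known. Alternatives covered the pseudocount, filter, scaling, rows used, replicate block and left-out samples. Promoters came from RefSeq (GRCm38.p6). Protein sequences were not used here, and 1 further gene of the naming rule is not reported here.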

Additional observations from a re-analysis of the deposited data

Results flagged for a closer look

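Within groups of 4 samples, a single sample stood apart from the others by Dixon's test at the 95% level in 6 of 100 groups examined, where chance gives about 1 in 20, or 5. For Cldn2 it was WT sample 2, at 76.5 FPKM on its end row, against 155 FPKM over all start rows under the gene's identifier. For Myl9 it was MG53-TG sample 4, at 3.0 FPKM, which is still under all WT samples. For Rock1 it was WT sample 3, at 19.1 FPKM, in a group with a range of under 1 FPKM. Among the marker genes it was WT sample 4 for the Paneth cell gene Defa24, at 716 FPKM, MG53-TG sample 3 for Defa22, at 0.112 FPKM, and WT sample 1 for the replication gene Mcm5, at 29.6 FPKM. For Defa22 the other MG53-TG samples had no value and were set to 0. The cause of these values was not tested.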

How the results depend on the processing

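Cldn15 and Tjp1 kept direction and call in all 14 alternatives and all 8 fits that left out a sample, with log2 fold changes of 0.58 to 0.93 and -0.69 to -0.45. With median-of-ratios scaling, Cldn7 did not pass (-0.17), Cldn2 and Ocln turned positive (0.14 and 0.093), as did Cgn (0.15) and Marveld2 (0.030), 2 of the 6 genes passed and 18 junction genes were lower. With quantile normalization, Cldn7 was -0.55 and Ocln (0.0053), Cgn (0.057), Marveld2 (0.033) and Epcam (-0.15) changed sign. Tjp3 did not pass with no filter (-0.80), median-of-ratios scaling (-0.61), quantile normalization (-0.71), MG53-TG samples 1 and 2 only (-0.71) or samples 3 and 4 only (-0.88). Those sample pairs were chosen after seeing the data. With them Cldn2 (0.040, samples 3 and 4), Cgn (0.023, samples 1 and 2) and Epcam (-0.053, samples 1 and 2) changed sign. Cldn2 was 0.12 on start rows only and -0.30 with no coordinate check (adjusted p = 0.221). On end rows only, 19 of 42 junction genes tested passed (45.2%, beside 43.4% of all genes), 17 of them lower. Leaving out 1 sample gave -0.25 to 0.15 for Cldn2, positive without WT sample 1 (0.034), 3 (0.015) or 4 (0.013) or MG53-TG sample 1 (0.15), -0.96 to -0.64 for Tjp3 and -0.41 to -0.32 for Cldn7. Cgn ran from -0.063 to 0.0036, positive without MG53-TG sample 3, and Epcam from -0.051 to 0.071, negative without WT sample 1 or MG53-TG sample 3. The cause was not tested.

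For sample numbers shared between the groups, the 4 correlations of their deviations ran from -0.050 to 0.094. Whether the numbers pair the samples is not settled by this, since the correlations run over all genes. In Tjp3, samples 2 and 4 were the higher ones in both groups. With the replicate number as a block, 4196 genes passed in place of 4595, Tjp3 passed with an adjusted p of 0.0065, Tiam1 did not pass (0.0549), and 0 exons passed in place of 11. By limma, 137 exons had an unadjusted p under 0.05, and leaving out 1 sample gave 2 to 16 exons, with 2 to 7 without any 1 of the WT samples or MG53-TG sample 3 or 4. The depth behind the FPKM values is unknown, so how far counting error limits low genes cannot be given.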
